A study of Mus musculus with 4 samples.

Results

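The 9 genes described here encode 3 ligands of the transforming growth factor beta (TGF-beta) family (Tgfb1, Tgfb2 and Tgfb3), the related ligand subunit Inhba, the receptors Tgfbr1, Tgfbr2 and Tgfbr3, and the pathway targets Tgfbi and Smad7. They were chosen by name out of 18193 genes that the array measured, with earlier results of these data known. Counts of called members beside the share of the array are therefore descriptive and no test. Every probe set whose annotation names a member and no other gene was used, which gave 23 probe sets. OP9M2, the line that sustains human blood progenitors in co-culture, is a mesenchymal stem cell line grown from OP9 stroma as a single clone. BFC012, the line that fails to do so, is a fibroblast line of mouse fetal liver. Each line was measured on 2 Affymetrix arrays, labelled as biological replicates, from cells irradiated with 2000 rad and harvested 48 hours after being plated at 25000 per square centimetre. OP9M2 was kept in 20% serum and BFC012 in 10%, so line and serum cannot be told apart, and the labels do not say whether the replicates were separate cultures, so the p-values measure the spread between these arrays only.

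TGF-beta ligands are secreted in a latent form, bound in the matrix and set free by integrins, proteases and thrombospondin. The free ligand binds the type II receptor Tgfbr2, which then activates the type I receptor Tgfbr1, and the activated complex phosphorylates Smad2 and Smad3, which enter the nucleus with Smad4. In bone marrow the pathway is known for holding hematopoietic stem cells in quiescence, and in fibroblasts for driving matrix and contractile genes.

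The deposited values were read on the log2 scale through their natural logarithm, and log2 values and differences are in these units throughout. Probe sets of different genes bind differently, so levels are compared only between the lines. The background level was 6.09, under which lay 95% of the values of 81 probe sets for odorant and related receptors. A probe set was called at a limma adjusted p under 0.05 with a difference of at least 1 log2 unit. The OP9M2 arrays stood farther apart (2842 probe sets differed by 1 log2 unit or more) than the BFC012 arrays (291). OP9M2 replicate 2 was also the array without poly-A spike-in signal, with 0 of 24 control probe sets above background, against 12 to 18 on the other 3 arrays. Its mean over 3 probe sets of 18S ribosomal RNA was 14.2, against 12.7 to 13.2. Of 10 mesenchymal markers, 9 were above background in each line. S100a4 was called higher in OP9M2 (2.23 ± 0.13) and 0 were called lower. Without overlap, 4 of the 10 were above in OP9M2 and 2 below. The mean of the list was 11.9 and 11.5 on the OP9M2 arrays, against 10.8 and 11.0 on the BFC012 arrays. Of 5 adipocyte markers 3 were called higher in OP9M2, and the mean of the list was 13.0 and 10.1 on the OP9M2 arrays, against 5.69 and 5.43 on the BFC012 arrays. Of 7 mesothelial markers 6 were called lower, with means of 5.06 and 5.46 in OP9M2, against 10.3 and 10.6 in BFC012. Of 6 smooth muscle markers 2 were called lower. Of 5 endothelial markers 0 were called, with Kdr above background on all 4 arrays and Pecam1, Cdh5, Tek and Vwf on 0. Of 6 macrophage markers 0 were called, with Csf1r above background on 4 arrays, Cd68 on 3, Lyz2 on 1 and Ptprc, Adgre1 and Itgam on 0. Of 5 epithelial markers 1 was called, Cdh1, at 3.50 and 3.39 in OP9M2, against 7.71 and 8.30 in BFC012, while Epcam was above background on all 4 arrays and was not called. The part of these marker programmes in the differences below was not tested, and in such bulk RNA fewer cells of a kind and less RNA per cell cannot be told apart.

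Promoter windows in RefSeq (GRCm38.p6, 250 bases before to 50 after a start) were found for 6 of the 9 genes, and those of the target Tgfbi, the ligand Tgfb2 and the receptor Tgfbr2 are shown because, among the genes with a window, their brightest probe sets were the ones on which the lines did not overlap. Capitals mark CAGAC on either strand, the short element that Smad proteins bind. Tgfbi lies at chr13:56609336-56609635 on the plus strand, Tgfb2 at chr1:186705940-186706239 on the minus strand and Tgfbr2 at chr9:116175314-116175613 on the minus strand, each read in the direction of its gene.
Tgfbi: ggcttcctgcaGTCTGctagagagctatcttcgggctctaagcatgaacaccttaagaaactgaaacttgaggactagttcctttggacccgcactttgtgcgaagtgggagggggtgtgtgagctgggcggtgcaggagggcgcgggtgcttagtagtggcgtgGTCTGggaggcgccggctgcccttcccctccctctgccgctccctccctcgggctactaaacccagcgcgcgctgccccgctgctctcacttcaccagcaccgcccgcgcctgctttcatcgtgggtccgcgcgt
Tgfb2: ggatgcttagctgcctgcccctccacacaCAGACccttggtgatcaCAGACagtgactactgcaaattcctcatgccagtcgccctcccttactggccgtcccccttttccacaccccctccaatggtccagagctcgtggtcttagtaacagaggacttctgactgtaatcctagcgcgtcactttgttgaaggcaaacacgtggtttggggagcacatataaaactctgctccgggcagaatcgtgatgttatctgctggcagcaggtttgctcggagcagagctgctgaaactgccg
Tgfbr2: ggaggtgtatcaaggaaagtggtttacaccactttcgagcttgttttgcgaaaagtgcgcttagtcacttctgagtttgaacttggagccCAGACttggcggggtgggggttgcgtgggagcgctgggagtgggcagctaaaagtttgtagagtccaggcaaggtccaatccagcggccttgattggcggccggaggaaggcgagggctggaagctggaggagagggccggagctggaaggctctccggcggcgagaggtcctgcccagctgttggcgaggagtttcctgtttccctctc
In Tgfbi the element stood 239 and 85 bases before the start, both times on the other strand, in Tgfb2 221 and 204 bases before it and in Tgfbr2 160 bases before it. Of all 32851 promoter windows, 49.6% held CAGAC at least once, and 4 of the 7 windows of the 6 member genes did. The longer palindrome GTCTAGAC, searched the same way, was in 0 of those 7 windows and in 0.213% of all windows. The TATA box TATAAA was in 2 of the 7, among them Tgfb2 at 31 bases before its start, and in 13.6% of all windows. These matches describe the letters of the windows and not the use of a site.

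Of the 23 probe sets, 4 were called higher in OP9M2, 1 was called lower and 18 were not called. The 4 all belonged to Tgfbi and the 1 to Tgfb3. Across the array, 1.80% of probe sets were called higher and 2.66% lower (4.46% in either direction). With each gene represented by its brightest probe set, 2 of 9 members were called, against 5.91% of all genes. That share includes dim genes, while 8 of the 9 members were above background on all 4 arrays. By brightest probe set the members' median difference was -0.41, against 0.03 over all genes. That median is the value of Inhba, which was not called. Over the 23 probe sets the median was -0.08, against 0.04 over all probe sets. In 11 of the 23 probe sets the arrays of the lines did not overlap, with OP9M2 above in 4 and below in 7. Over all probe sets 49.5% did not overlap, 27.6% with OP9M2 above and 21.9% with OP9M2 below, so the members' count is near that of the array as a whole. By brightest probe set, 4 of the 9 members did not overlap, 1 above and 3 below, against 53.2% of all genes, 28.4% above and 24.8% below.

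**Figure D1:**
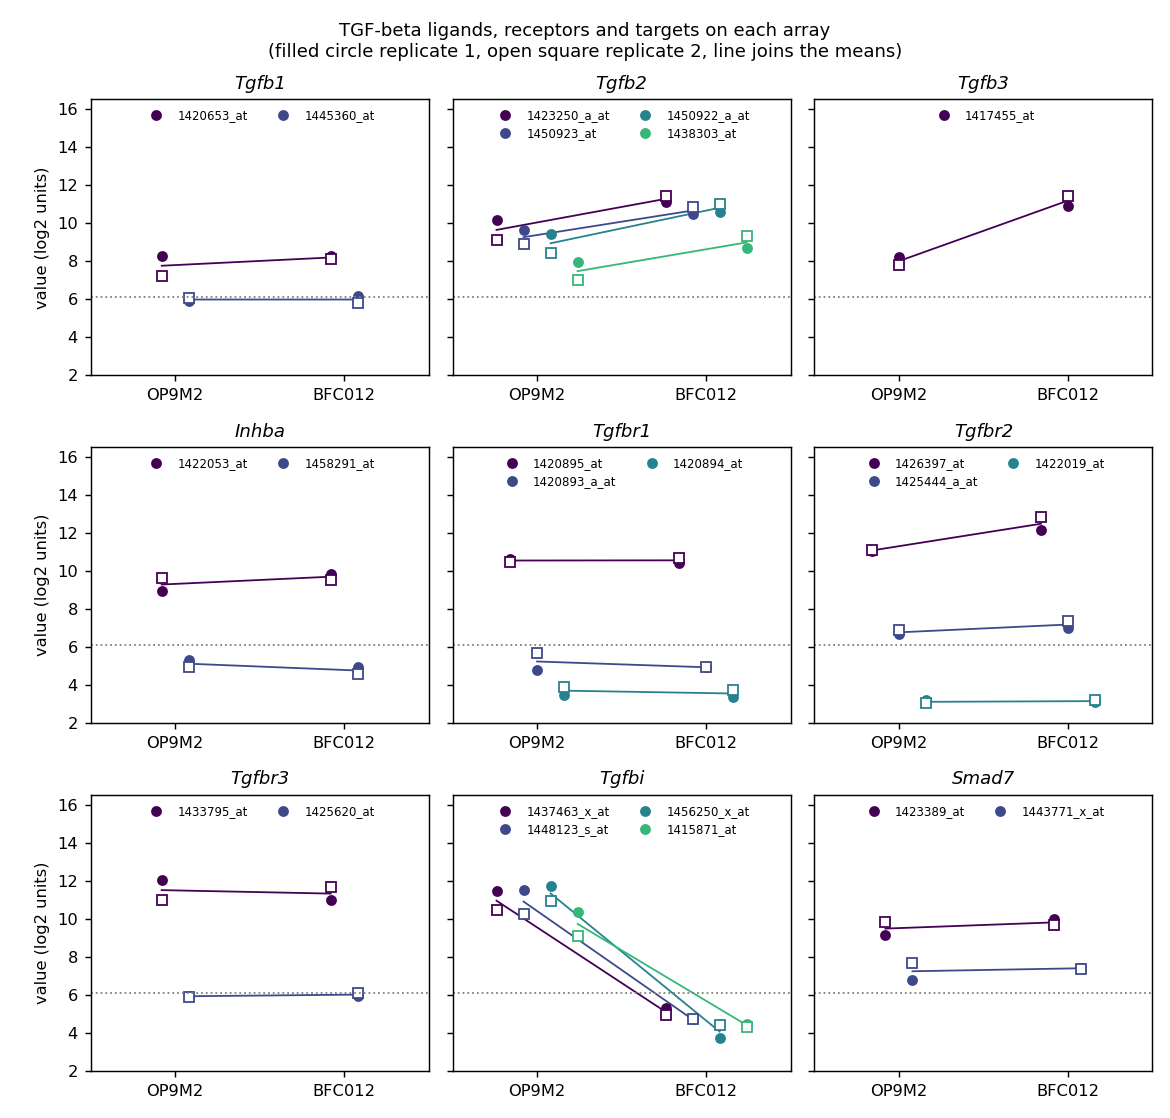
Value of each of the 23 probe sets (vertical axis, log2 units) in OP9M2 (left) and BFC012 (right) in a panel per gene, with a colour per probe set, filled circles for replicate 1, open squares for replicate 2, a line between the means and the background level of 6.09 dotted. The Tgfbi lines fall below background in BFC012, those of Tgfb2 and Tgfb3 are higher in BFC012, and the fainter Inhba probe set, the 2 fainter ones of Tgfbr1 and the faintest of Tgfbr2 lie below background in both lines.

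Among the ligands, Tgfb3 was lower in OP9M2, the probe sets of Tgfb2 were all at lower values there without passing the test, and Tgfb1 was not set apart. Tgfb3, the isoform best known for palate fusion, was measured by 1 probe set, at 8.22 and 7.78 in OP9M2, against 10.9 and 11.4 in BFC012. Both OP9M2 arrays lay more than 2 log2 units under both BFC012 arrays. The difference was -3.18 ± 0.26 (SE, n = 2 arrays per line), which is 9.07-fold lower, with a limma adjusted p of 0.00947. It lay between -3.44 and -2.92 with any 1 array left out.

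Tgfb2, the ligand isoform of heart and eye development, was measured by 4 probe sets. The brightest stood at 10.2 and 9.12 in OP9M2, against 11.1 and 11.4 in BFC012. The third brightest stood at 9.43 and 8.44 in OP9M2, against 10.6 and 11.0 in BFC012. For each of the 4 probe sets both OP9M2 arrays were below both BFC012 arrays, and OP9M2 replicate 2 was the lowest array. The 4 differences lay between -1.87 and -1.40, with SE from 0.30 to 0.39 and limma adjusted p from 0.0800 to 0.133, so that Tgfb2 was not called. The 95% interval of the brightest probe set was -2.66 to -0.60. The 4 probe sets share their RNA samples and are not independent measurements of the line. The brightest differed by -2.15 without OP9M2 replicate 1. It differed by -1.11 without OP9M2 replicate 2, which keeps the 3 arrays that carry the spike-in signal. Either fit leaves 1 OP9M2 array and takes its spread from the BFC012 arrays alone, so only the size of the difference is given. Across the alternatives that keep all 4 arrays, the limma adjusted p of the brightest lay between 0.0775 and 0.231.

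Tgfb1, the isoform most widely made by blood and stromal cells, had a probe set at 8.29 and 7.22 in OP9M2, against 8.28 and 8.09 in BFC012. OP9M2 replicate 2 was lower than the other 3 arrays, which lay close together, and the lines overlapped. The difference was -0.43 ± 0.39 (95% interval -1.46 to 0.59, limma adjusted p = 0.638). Within the 3 arrays that carry the spike-in signal, that is without OP9M2 replicate 2, it was 0.10, and without OP9M2 replicate 1 it was -0.97, short of the fold asked of a call. The other Tgfb1 probe set lay between 5.79 and 6.16 on the 4 arrays, around the background level.

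Inhba encodes the subunit of activin A, a ligand that signals through its own receptors to the same Smads. Its brighter probe set stood at 8.93 and 9.64 in OP9M2, against 9.87 and 9.53 in BFC012. The lines overlapped, and OP9M2 replicate 1 was the lowest array. The difference was -0.41 ± 0.29 (95% interval -1.19 to 0.36, limma adjusted p = 0.543). The second Inhba probe set was at or below background on all arrays, from 4.59 to 5.32.

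Of the receptors, Tgfbr2 had lower values in OP9M2 on its brightest probe set, which narrowly missed the test, while Tgfbr1 and Tgfbr3 showed no separation. Tgfbr2, the type II receptor that binds the ligand first, stood at 11.1 on both OP9M2 arrays, against 12.1 and 12.8 in BFC012. The OP9M2 arrays were 0.045 apart and both were below both BFC012 arrays. The difference was -1.40 ± 0.26 (a ratio of 2.65, 95% interval -2.10 to -0.70, limma adjusted p = 0.0673). The second brightest probe set stood at 6.67 and 6.87 in OP9M2, against 7.01 and 7.35 in BFC012, with a smaller difference of -0.41 ± 0.19 (limma adjusted p = 0.339). The third was near 3 on every array and measured no level above background. Tgfbr2 was not called in any of the alternatives, and with the brightest probe set the difference stayed between -1.75 and -1.06 with 1 array left out.

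Tgfbr1, the type I receptor kinase that passes the signal on to the Smads, stood at 10.6 and 10.5 in OP9M2, against 10.4 and 10.7 in BFC012. The arrays of the lines interleaved. The difference was -0.011 ± 0.16, and its 95% interval of -0.45 to 0.43 lay inside a 2-fold change in either direction. The other 2 Tgfbr1 probe sets were below background on all arrays. Tgfbr3, or betaglycan, a coreceptor that presents Tgfb2 to the signalling receptors and also binds inhibin, stood at 12.0 and 11.0 in OP9M2, against 11.0 and 11.7 in BFC012. The replicates of each line were farther apart than the means of the lines. Its difference was 0.18 ± 0.43, with a wide 95% interval of -0.96 to 1.32 (limma adjusted p = 0.886). It was -0.33 without OP9M2 replicate 1 and -0.15 without BFC012 replicate 1, against 0.70 within the 3 arrays that carry the spike-in signal, so that its direction turned with the array left out.

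**Figure D2:**
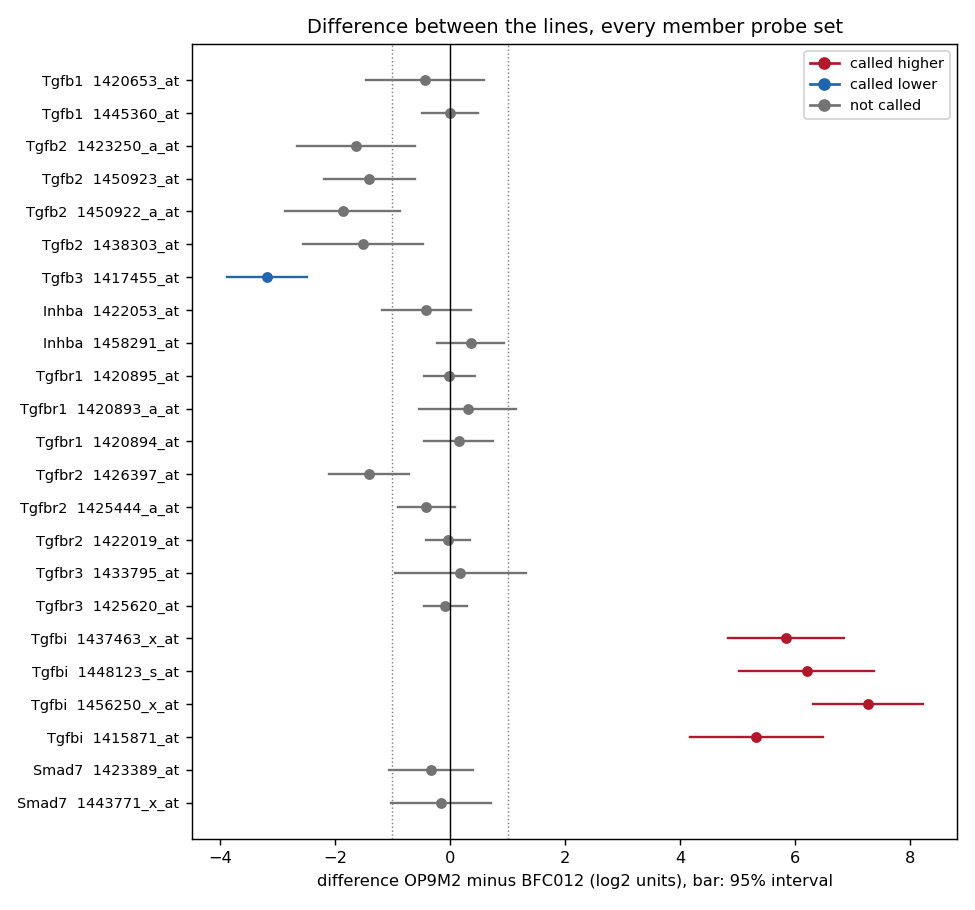
Difference OP9M2 minus BFC012 (horizontal axis, log2 units) for each of the 23 probe sets, with the 95% interval of the limma fit as a bar, red for probe sets called higher, blue for called lower and grey for not called; dotted lines mark a difference of 1 in each direction. The 4 Tgfbi probe sets lie between 5.32 and 7.27 and Tgfb3 at -3.18, while the intervals of Tgfb2 and of the brightest Tgfbr2 probe set lie wholly below 0 but were not called after adjustment.

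Of the targets, Tgfbi differed most among the members, and Smad7 did not separate the lines. Tgfbi encodes a secreted matrix protein, first found as a transcript induced by TGF-beta, that binds collagen and integrins. Its brightest probe set stood at 11.5 and 10.4 in OP9M2, against 5.30 and 4.92 in BFC012. The third brightest stood at 11.7 and 11.0 in OP9M2, against 3.75 and 4.39 in BFC012. On each of the 4 probe sets both OP9M2 arrays were more than 3 log2 units above background and both BFC012 arrays were below it. The differences were 5.84 ± 0.38 for the brightest, which is at least 29.0-fold with the BFC012 side set at the background level, and between 5.32 and 7.27 over the 4 (at least 12.5-fold to at least 37.8-fold; limma adjusted p from 0.00280 to 0.00916). OP9M2 replicate 1 was higher than replicate 2 on all 4 probe sets, by 0.76 to 1.27. The faintest of the 4 is the one whose identifier carries no suffix for probes shared with other transcripts, and its difference was 5.32 ± 0.44.

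Smad7 encodes the inhibitory Smad that TGF-beta signalling induces and that in turn blocks the type I receptor. It stood at 9.16 and 9.81 in OP9M2, against 9.97 and 9.65 in BFC012, and its second probe set at 6.79 and 7.69 in OP9M2, against 7.44 and 7.36 in BFC012. On both probe sets OP9M2 replicate 1 was the lowest array and the lines overlapped. The differences were -0.33 ± 0.27 (95% interval -1.05 to 0.40, limma adjusted p = 0.613) and -0.16 ± 0.33. Without OP9M2 replicate 1 the first was -0.0028, and without OP9M2 replicate 2 it was -0.65, not called.

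The calls of Tgfbi and Tgfb3 were lost without either BFC012 array. Both genes were called without either OP9M2 array (Tgfbi 5.34 and 6.35, Tgfb3 -3.40 and -2.96). Without BFC012 replicate 1 the differences were 6.03 for Tgfbi and -3.44 for Tgfb3, but the limma adjusted p were 0.127 and 0.121, and without BFC012 replicate 2 they were 0.146 and 0.157. With either array of BFC012 left out, limma called 0 probe sets in all, with 4568 and 4517 at an unadjusted p under 0.05. These fits estimate the spread from the 2 OP9M2 arrays, those without an OP9M2 array from the 2 BFC012 arrays. In 17 of the 23 probe sets the OP9M2 replicates were farther apart than the BFC012 replicates.

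**Figure D3:**
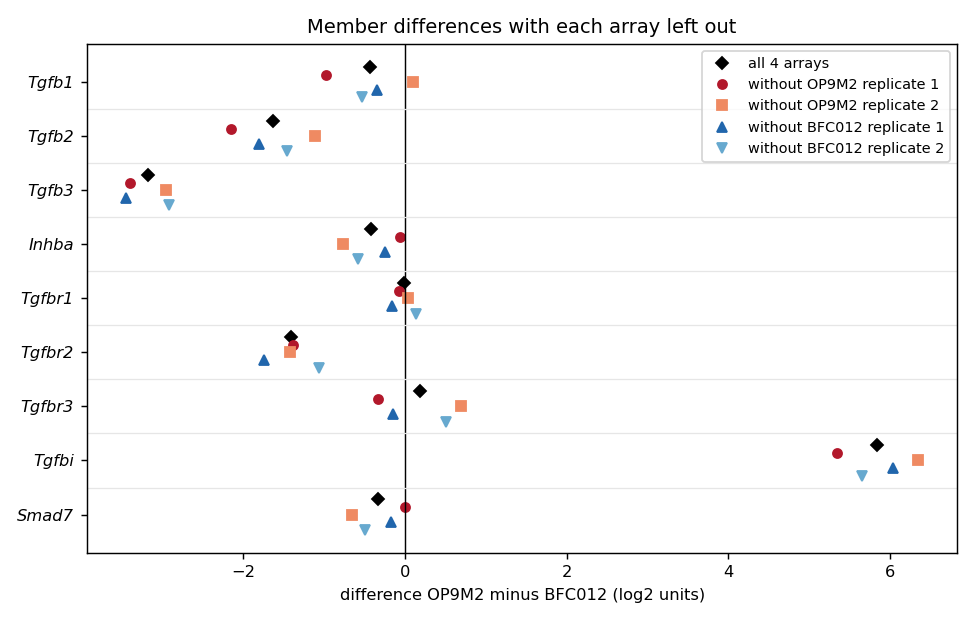
Difference OP9M2 minus BFC012 (horizontal axis, log2 units) of the brightest probe set of each gene with all 4 arrays (black diamonds) and with each array left out (coloured symbols). Tgfbi, Tgfb2, Tgfb3 and Tgfbr2 stay on 1 side of 0, while Tgfb1, Tgfbr1 and Tgfbr3 cross it. Inhba and Smad7 also stay below 0 but come near it, at -0.058 and -0.0028 without OP9M2 replicate 1.

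The rest of the pathway was described with 5 lists by role, 106 genes in all, of which 100 were measured. The other 6 were not analysed here. The lists, too, were chosen with earlier results of these data known, so their counts are descriptive and no test. Of the 100, 4 were called higher in OP9M2, 11 lower and 85 were not called, beside 2.36% and 3.56% of all genes. Those shares include many dim genes, while 12 of the 100 were at or below background on all arrays. Among the 24911 probe sets above background on at least 1 array, 2110 were called, 882 higher and 1228 lower. With that filter 4 list genes were called higher and 12 lower. Without the filter, the median difference of the 100 measured list genes was -0.09, against 0.03 over all genes. Without OP9M2 replicate 1 the counts were 8 higher and 17 lower, without OP9M2 replicate 2 they were 13 and 16, and without either BFC012 array they were 0 and 0. Of the 15 genes called with all arrays, 13 were called as the mean of a gene's probe sets. With the replicate number as a block 7 were called, namely Mmp2, Thbs1, Itgb8, Dcn, Col1a2, Nox4 and Cdkn2b, and the rest were not.

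Of 27 measured genes of TGF-beta latency, activation and binding, 1 was called higher, 5 were called lower and 21 were not called (median -0.0017). The gelatinase Mmp2, which can free latent ligand, was at 13.0 and 12.2 in OP9M2, against 6.0 and 5.63 in BFC012, both below background (6.81 ± 0.33, at least 92.6-fold). Thbs1, or thrombospondin, an activator of latent TGF-beta, was at 6.91 and 8.24 in OP9M2, against 13.7 and 13.6 in BFC012 (-6.10 ± 0.46, 68.8-fold lower, limma adjusted p = 0.00759). Itgb8, the chain of the integrin that releases latent Tgfb1 and Tgfb3, was below background in OP9M2 at 2.76 and 3.18, against 8.58 and 8.96 in BFC012 (-5.79 ± 0.23, at least 6.39-fold lower). Dcn, or decorin, a proteoglycan that binds TGF-beta, was below background in OP9M2 as well (-6.34 ± 0.35, at least 67.3-fold lower), while its other probe set differed by only -0.28 and was not called. The proprotein convertase Pcsk6 differed by -2.02 ± 0.23. The remaining call was the procollagen protease Bmp1 (-1.77 ± 0.16), named after its value was seen. It was called on 2 of its 3 probe sets, and the highest difference was 0.042. Fmod was not called on its brightest probe set, but 3 of its 6 probe sets were called lower, with differences over the 6 from -3.64 to -1.14.

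Differences among the other receptors and the Smads were smaller. Of 9 receptors and coreceptors beyond the members, 1 was called lower and 0 were called higher. The 1 was endoglin, Eng, which aids TGF-beta signalling in vessels (-1.88 ± 0.20, 3.67-fold lower, limma adjusted p = 0.0175), on both of its probe sets. Eng was not called with the replicate number as a block (limma adjusted p = 0.0563). The activin receptor Acvr1b differed by 0.37 ± 0.34 and was not called. Of 21 Smads and Smad regulators, 2 were called lower, 0 higher and 19 were not called (median -0.35). These counts use the brightest probe set of a gene. Of the 3 Smurf2 probe sets, with differences from 0.62 to 1.43, 1 fainter one was called higher. Smad2, a transducer of the signal, was at 8.77 and 8.41 in OP9M2, against 9.71 and 9.73 in BFC012 (-1.13 ± 0.18, limma adjusted p = 0.0453), close to the threshold in both size and p. It was not called without OP9M2 replicate 2 (-0.95) or as the mean of its probe sets (-0.95). Nor was it called with a variance trend (limma adjusted p = 0.0704) or with the replicate number as a block (limma adjusted p = 0.131). Its other probe set differed by -0.78 and was not called. The corepressor Tgif2 was lower on both of its probe sets (-1.64 ± 0.17). Smad3, the other receptor-driven transducer, differed by -0.35 ± 0.24 and their common partner Smad4 by -0.29 ± 0.16, neither of them called.

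In the activin and inhibin group, 1 of 12 was called, the secreted glycoprotein Fstl1, higher at 13.8 and 13.4 in OP9M2, against 12.5 and 12.3 in BFC012 (1.18 ± 0.19, limma adjusted p = 0.0481). It was not called without OP9M2 replicate 1 (0.99), after centring the arrays on their medians (1.16) or after quantile normalization (1.17, limma adjusted p = 0.0532). Nor was it called as the mean of its probe sets (limma adjusted p = 0.0534) or with the replicate number as a block (limma adjusted p = 0.0994). Its other probe set differed by 1.23 and was not called. Follistatin, Fst, which binds and blocks activin, differed by -1.24 ± 0.39 and was not called (limma adjusted p = 0.191).

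Genes known to be induced by TGF-beta in fibroblasts did not share a direction. Of 31 measured, 2 were called higher, 3 lower and 26 were not called (median -0.21). Higher was Col1a2, which encodes part of collagen I, at 14.2 and 14.1 in OP9M2, against 6.18 and 6.07 in BFC012, which is about the background level, so that no fold is given (8.07 ± 0.14). All 3 Col1a2 probe sets were called higher, with differences from 4.38 to 9.26. Col1a1, which encodes the other part of collagen I, was at 12.8 and 12.1 in OP9M2, against 13.1 and 13.1 in BFC012. It was not called (-0.63 ± 0.25), and neither were Col3a1 (0.23) and Col5a1 (-0.21). Higher as well was Nox4, an NADPH oxidase of myofibroblasts (4.40 ± 0.26, at least 4.35-fold). Lower were Cdkn2b, the p15 inhibitor of the cell cycle (-5.01 ± 0.20, at least 16.1-fold lower), and the contractile genes Tagln, at 8.19 and 8.4 in OP9M2, against 13.0 and 11.8 in BFC012 (-4.10 ± 0.46, 17.2-fold lower), and Cnn1 (-1.41 ± 0.21), which stood above background on 1 BFC012 array alone and was not called without OP9M2 replicate 1. Ccn2, or connective tissue growth factor, was at 11.8 and 12.1 in OP9M2, against 14.1 and 13.2 in BFC012, and was not called (-1.64 ± 0.35, limma adjusted p = 0.0881).

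**Figure D4:**
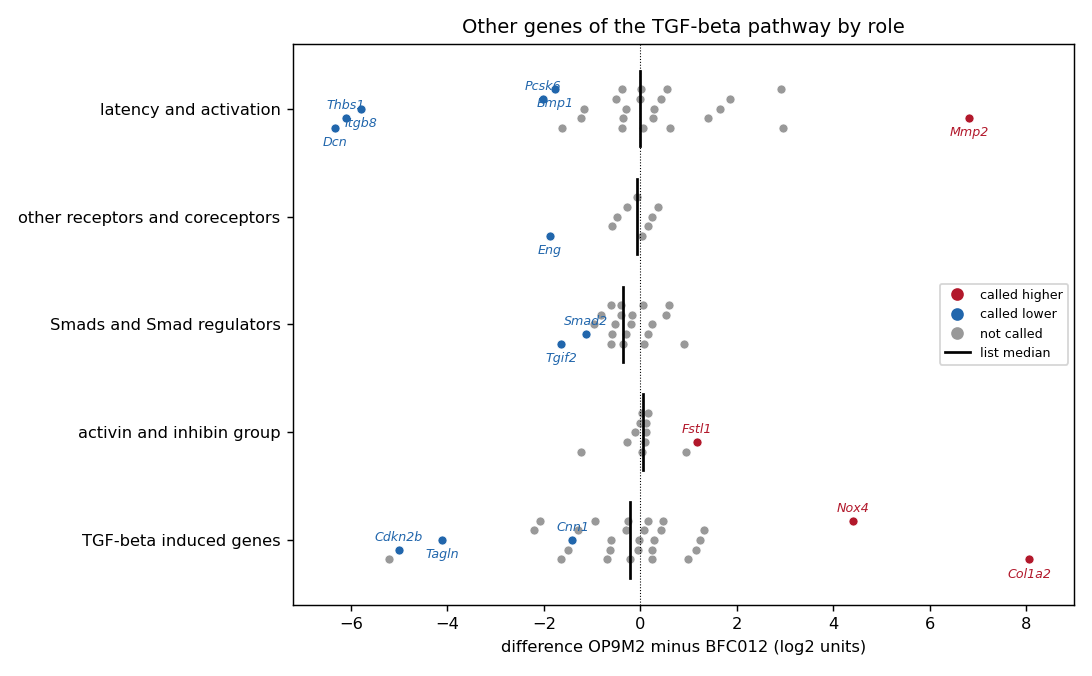
Difference OP9M2 minus BFC012 (horizontal axis, log2 units) of each of the 100 measured genes in 5 lists by role, with red and blue points for genes called higher and lower, grey points for genes not called and a black bar at each list's median; the vertical spread within a list has no meaning. The medians lie between -0.35 and 0.06, and the 15 called genes, marked by name, lie on both sides of 0.

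Over the 4 arrays, the profile of Tgfbi, each value taken relative to the gene's mean, was nearest among 18192 other genes to those of the secreted Wnt modulator Dkk3 (Euclidean distance 0.33 log2 units), the integrin ligand Edil3 (0.35) and Tceal1 (0.39). That of Tgfb3 was nearest to Fxyd3 (0.16), Tbc1d8 (0.16) and the transcription factor Cebpd (0.18). Cebpd was at 8.61 and 8.23 in OP9M2, against 11.2 and 11.6 in BFC012. In BFC012, Tgfbi, Dkk3, Edil3 and Tceal1 were all below background, as were Fxyd3 and Tbc1d8 in OP9M2, so the size of their steps between the lines, and with it the order of these distances, was not measured. Of the 6 neighbours only Cebpd was above background on all 4 arrays. With 4 points from 2 lines, such likeness describes these arrays and does not set the genes apart from others that differ between the lines by a like amount.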

How the data were processed

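Total RNA of OP9M2 and BFC012 was hybridized to Affymetrix whole-genome mouse arrays after amplification with an Ambion kit. Each array's deposited column holds an intensity for every probe set. The authors' processing notes list RMA and affy as tools, and the sources used here give no version or settings. Up to 6.57% of the values of an array exceeded 65535, the maximum of the scanner, and their natural logarithms spanned 2.06 to 14.9, a range usual for RMA output in log2. The natural logarithm was therefore read as log2 and folds are 2 to the power of a difference; the base was not stated by the authors, and log2 of the deposited value was an alternative.

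After 64 control probe sets were left out, 45037 were fitted with limma 3.58.1 under R 4.3.3 (eBayes after lmFit, OP9M2 against BFC012, Benjamini-Hochberg adjustment over all of them). Degrees of freedom were 2 residual and 2.50 prior. The script was tested on simulated data. Probe sets naming several genes (932) or none (9160) were fitted without a name. In gene counts a gene is represented by its probe set with the highest mean. Intervals are at 95% from the same fit. Where both arrays of a line were below background, the fold is a lower bound. The number of arrays limits the precision.

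The members and lists were chosen with earlier results of these data known. Named in the text are all members, the called genes of each list (at most 4 per direction), Smad2, Smad3, Smad4, Ccn2, Acvr1b, Eng and Fst whatever their values (1 further gene of this rule was not analysed here), and the 3 nearest profiles of each called member. Col1a1, Col3a1, Col5a1, Smurf2 and Fmod were named after their values were seen. The alternatives were the log scale, centring, quantile normalization, 2 filters on dim probe sets, a variance trend, the adjusted p alone, each array left out, the replicate number as a block, and the mean of a gene's probe sets.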

Additional observations from a re-analysis of the deposited data

How the results depend on the processing

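Without 1 array, the calls lay between 0 and 2181 probe sets higher and 0 and 2256 lower over the array, 0 and 1 member genes higher and 0 and 2 lower, 0 and 4 member probe sets higher and 0 and 5 lower, and 0 and 13 list genes higher and 0 and 17 lower. The lowest counts are those without either BFC012 array.

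The replicate numbers, as a block, gave 245 probe sets higher and 462 lower, 0 member genes and 0 member probe sets lower (Tgfb3 with a limma adjusted p of 0.0649) and 4 list genes lower; Tgfbi was called (limma adjusted p = 0.0231). The deviations of same-numbered arrays correlated at -0.103 over probe sets, so the numbers are not shown to pair the arrays. With the numbers crossed, an alternative chosen after seeing the data, 792 probe sets and 2 member probe sets were lower.

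Directions of members turned only in genes that were not called. Tgfbr1 was 0.038 after quantile normalization and 0.15 as the mean of its probe sets, and without 1 array it lay between -0.15 and 0.13, Tgfb1 between -0.97 and 0.10 and Tgfbr3 between -0.33 and 0.70. Fainter probe sets, in order of brightness, that turned without 1 array lay between -0.18 and 0.18 (the second of Tgfb1), -0.13 and 0.74 (the second of Tgfbr1), -0.055 and 0.36 (the third of Tgfbr1), -0.12 and 0.042 (the third of Tgfbr2) and -0.61 and 0.29 (the second of Smad7). Tgfbi and Tgfb3 were called in the same direction under each alternative, except both without either BFC012 array and Tgfb3 with the block. Values below the background level limit what the fainter probe sets show.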
